A study of Rattus norvegicus with 20 samples.

Results

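The cluster of miR-221 and miR-222 in the rat comprised 4 mature miRNAs, rno-miR-221-3p, rno-miR-221-5p, rno-miR-222-3p and rno-miR-222-5p, among 617 miRNAs with reads in small RNA sequencing of the adBNST, the anterodorsal part of the bed nucleus of the stria terminalis, a region of the extended amygdala. All 4 were among the 500 miRNAs that passed the filter on low values, which asked for 10 or more counts in 5 or more of 20 libraries. The members were the arms of 2 neighbouring hairpins, and the cluster was chosen by the difference of miR-221-3p between the male groups in these same libraries, so values of SI against GH males are given as a description, with no test. The libraries came from Sprague-Dawley rats, 5 in each of 4 groups: group-housed (GH) males, socially isolated (SI) males, GH females and SI females. From weaning at postnatal day 21 they spent 6 weeks with 3 rats of the same sex and litter to a cage (GH) or with 1 rat to a cage (SI). At 9 weeks of age they were tested on an elevated plus maze, and the adBNST was punched from the frozen brain after that test, in every group. The female samples were selected for RNA integrity and for a range of estradiol levels. GH rats may have shared a cage or a litter, and p-values measure the spread between these rats. A punch holds many cell types, so fewer cells of a type and less RNA per cell cannot be told apart.

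MicroRNAs are short RNAs that are cut from a hairpin precursor, loaded into an Argonaute protein and guided to messenger RNAs mainly by the seed, the bases just inside their 5′ end. Each hairpin gives a 5p and a 3p arm, of which usually the more abundant arm acts as the guide and the other is degraded. miR-221 and miR-222 are made from neighbouring hairpins, and are known for their abundance in endothelium, for repressing the cell-cycle inhibitor p27Kip1 and the receptor KIT, and, in neurons, as miRNAs induced by growth factor signalling.

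The reference sequences are shown because the 3p arms carried nearly all reads of the cluster and have the same seed. They are taken from RefSeq on GRCr8, both hairpins lying on the plus strand of chromosome X, Mir222 at chrX:6022621-6022723 and Mir221 at chrX:6023182-6023290, with 458 bases between them. Both lie inside the intervals of 2 annotated long noncoding RNA genes, LOC120099382 (chrX:5942511-6024221) and LOC120099384 (chrX:6004097-6045038), and the next gene after Mir221 is the pseudogene Fam156a-ps2. The strand of those genes, and whether the hairpins are exonic or intronic in them, were not determined here. Capitals in the mature miRNAs mark the seed, bases 2 to 8, and capitals in the hairpins mark the mature arms, 5p before 3p.
rno-miR-221-3p: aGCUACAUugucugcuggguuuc
rno-miR-222-3p: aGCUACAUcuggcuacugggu
rno-miR-221-5p: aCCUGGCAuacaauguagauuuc
rno-miR-222-5p: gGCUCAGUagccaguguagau
Mir221: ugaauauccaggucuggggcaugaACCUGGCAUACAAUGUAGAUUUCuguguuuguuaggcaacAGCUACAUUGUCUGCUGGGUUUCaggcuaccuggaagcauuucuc
Mir222: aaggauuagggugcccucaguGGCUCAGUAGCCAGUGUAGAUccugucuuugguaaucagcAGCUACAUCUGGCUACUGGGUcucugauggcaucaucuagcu
The 3p arms were identical over their first 8 bases, and among 693 mature rat miRNAs in the table no other had their seed. The 5p arms have different seeds, and neither seed occurred in another of the 693 miRNAs. Every read of the 4 members was assigned to 1 miRNA.

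The reads differed from the reference mostly at the 3′ end, and the most abundant forms are printed for that reason, as DNA letters, with capitals for 3′ bases that the reference does not have. Of 309283 reads of miR-221-3p over all libraries, the form without the last reference base made up 34.8%, the reference form 30.1% and the reference form with an added U (T in the reads) 8.15%.
miR-221-3p, 1 base shorter: agctacattgtctgctgggttt
miR-221-3p, reference: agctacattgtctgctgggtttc
miR-221-3p with added U: agctacattgtctgctgggtttcT
Of 446217 reads of miR-222-3p, 32.3% ended 2 bases and 30.2% ended 3 bases beyond the reference end, in letters of the hairpin, and the reference form made up 7.15%.
miR-222-3p, 2 bases longer: agctacatctggctactgggtCT
miR-222-3p, 3 bases longer: agctacatctggctactgggtCTC
The leading forms of both 3p arms began at the reference base and so kept the shared seed, which 98.3% of the reads of miR-221-3p and 97.5% of those of miR-222-3p had. The 5p arm of miR-221 also ran past its reference, with 36.8% of 12486 reads 1 base and 27.9% 3 bases longer.
miR-221-5p, 1 base longer: acctggcatacaatgtagatttcT
miR-221-5p, 3 bases longer: acctggcatacaatgtagatttcTGT
miR-222-5p differed from the other members at the 5′ end. Of its 254 reads, 55.5% started 3 bases and 30.7% started 2 bases inside the reference, so that 13.8% had the reference seed. These percents rest on 10 distinct sequences over all libraries. The leading forms that started 2 bases inside, with 33, 24 and 21 reads, were each found in 1 library.
miR-222-5p, leading form: tcagtagccagtgtagatCCT
This form made up 41.7% of its reads and was found in 9 libraries, and its bases 2 to 8 matched the seed of none of the 693 miRNAs.

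The libraries held between 3428930 and 11383055 miRNA reads, with medians of 4983188 in GH males, 7290553 in SI males, 5276646 in GH females and 6998674 in SI females. For the 2 SI rats numbered 17 the labels and the file names gave opposite sexes. Rats were grouped by their labels, and values with both libraries exchanged are given where they bear on the male groups. Levels are given as CPM, the counts of a miRNA scaled to a common total of miRNA reads per library, and log2 values as log2 of the normalized count plus 1.

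miR-221-3p, the more abundant arm of its hairpin, stood at similar levels in GH males, GH females and SI females, and higher in SI males. Over the 20 rats it averaged 2266 CPM and ranked 62 among 617 miRNAs. In GH males it stood at 1209 CPM in rat G16M, 1640 in G18M, 1766 in G19M, 1883 in G21M and 2597 in G20M. In SI males it stood at 2727 CPM in rat I20M, 2886 in I17M, 3334 in I22M, 3787 in I15M and 4690 in I19M. By the labels, every SI male was above every GH male, with means of 3485 ± 791 and 1819 ± 504 CPM (SD, n = 5). With the I17 libraries exchanged this did not hold, since I17F (2187 CPM) then counted as an SI male and lay below G20M (2597 CPM). In GH females the levels were 1328 CPM in G15F, 1403 in G17F, 1881 in G12F, 2250 in G16F and 2274 in G13F. In SI females they were 1256 CPM in I10F, 1900 in I14F, 2159 in I12F, 2165 in I16F and 2187 in I17F. The female groups overlapped, and the means of 1827 ± 450 CPM in GH and 1933 ± 397 CPM in SI females differed by less than 1 SD.

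**Figure D1:**
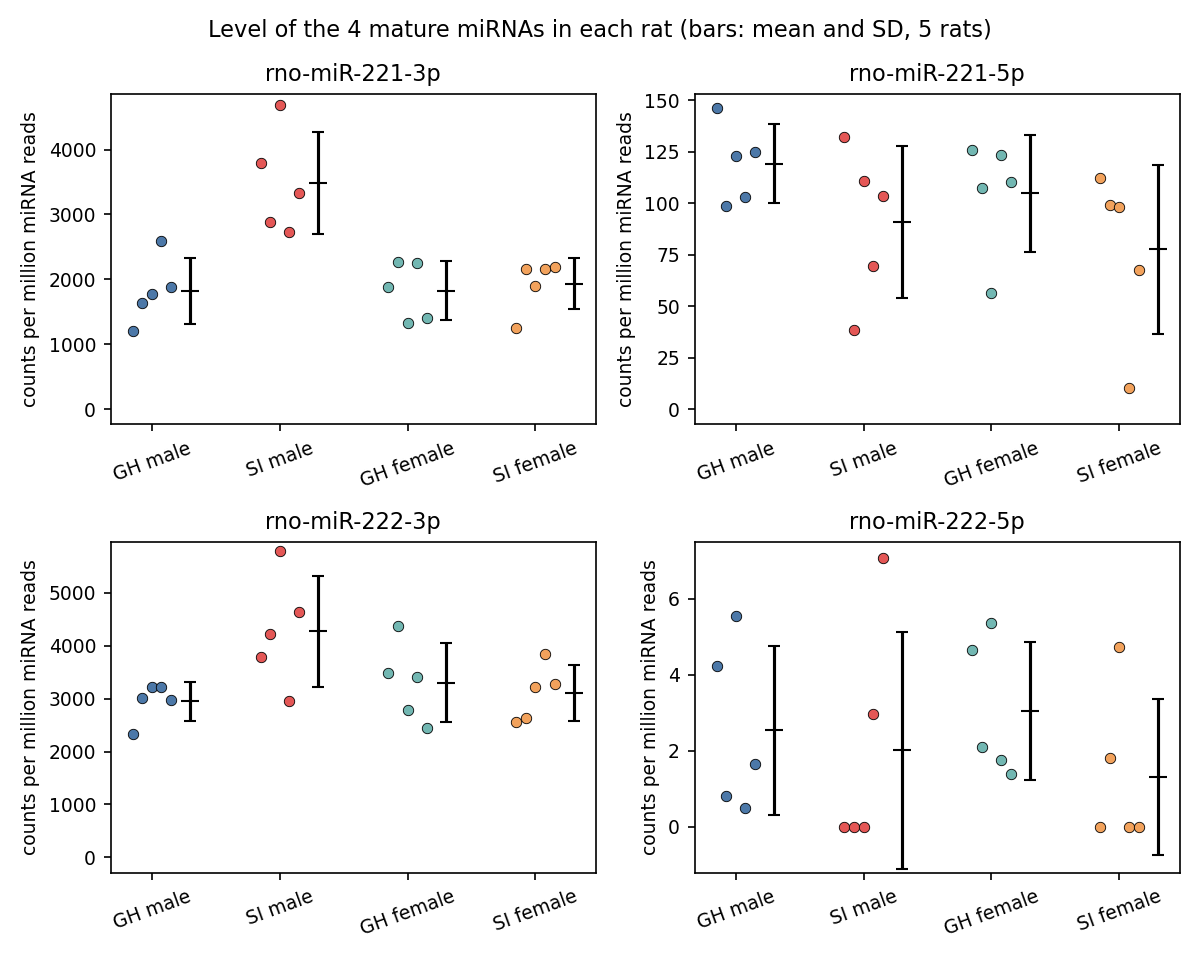
Level of each of the 4 mature miRNAs, in CPM, in the 5 rats of each group (points), with the mean and SD (bars). With rats grouped by their labels, all 5 SI males lie above all GH males for rno-miR-221-3p and 4 of 5 do so for rno-miR-222-3p. rno-miR-222-5p is listed at 0 in 3 SI males and 3 SI females.

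miR-222-3p, the more abundant arm of the other hairpin, was likewise highest on average in SI males, with more overlap between the male groups. It averaged 3406 CPM over all rats, ranking 48 of 617, and was above miR-221-3p in 19 of the 20 libraries. In GH males it stood at 2324 CPM in G16M, 2966 in G21M, 3012 in G18M and 3212 in both G19M and G20M. In SI males it stood at 2944 CPM in I20M, 3778 in I15M, 4226 in I17M, 4625 in I22M and 5783 in I19M. On this scale 4 of 5 SI males were above all GH males, and I20M lay within their range. In GH females the levels were 2447 CPM in G17F, 2783 in G15F, 3407 in G16F, 3487 in G12F and 4377 in G13F. In SI females they were 2564 CPM in I10F, 2628 in I12F, 3218 in I14F, 3279 in I17F and 3844 in I16F. The female groups overlapped, and 3 of 5 GH females were above all GH males on this scale while the other two lay within the range of GH males.

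The 5p arms were less abundant and showed no such order. miR-221-5p averaged 98.1 CPM (rank 225 of 617). Its means were 119 ± 19.2 CPM in GH males, 90.9 ± 36.9 in SI males, 105 ± 28.2 in GH females and 77.5 ± 41.0 in SI females (SD, n = 5). The groups overlapped, and the GH males ranged from 98.7 to 146 CPM while the SI males ranged from 38.5 (I17M) to 132 CPM (I15M). Among SI females, 4 rats ranged from 67.5 to 112 CPM and I16F stood apart at 10.4 CPM, with 65 reads. miR-222-5p was near the limit of counting, at 2.22 CPM on average (rank 456). It had 3, 4, 13, 19 and 21 reads in the GH males and 5, 9, 11, 25 and 44 reads in the GH females. Among SI males it had 21 reads in I20M and 33 in I22M, and was listed at 0 in I15M, I17M and I19M. Among SI females it had 13 reads in I12F and 33 in I14F, and was listed at 0 in I10F, I16F and I17F. It was thus listed at 0 in 6 of 10 SI libraries and in 0 of 10 GH libraries, in files that list only sequences with at least 2 reads. The fitted fold changes and arm ratios of miR-222-5p given below rest in part on those zeros and are not bounds.

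In females, SI and GH rats did not differ detectably in any of the 4 members. With edgeR's quasi-likelihood test and Benjamini-Hochberg adjustment over 500 miRNAs, 0 of 4 members passed a threshold of 0.05, where 2 of 500 miRNAs did (0.4%), and 104 of the 500 had an unadjusted p under 0.05, none of them a member. The number of calls was not stable, with 63 miRNAs called without I10F and 1 to 4 when another rat was left out. With only the groups compared in the model, 0 were called. DESeq2 called 67 miRNAs in this comparison and 0 of the members. The log2 fold change of miR-221-3p was 0.32 (SE 0.25, 95% interval −0.17 to 0.81, adjusted p = 0.527), and that of miR-222-3p was 0.13 (SE 0.22, −0.30 to 0.57, adjusted p = 0.769). For miR-221-5p it was −0.24 (SE 0.41, adjusted p = 0.769) and for miR-222-5p −1.09 (SE 1.66, adjusted p = 0.747). The median over the 500 miRNAs was −0.13. With the I17 libraries exchanged, the female values were 0.37 for miR-221-3p (edgeR, adjusted p = 0.435) and 0.18 for miR-222-3p (edgeR, adjusted p = 0.718). edgeR then called 5 miRNAs, none of them a member. None of the 4 members had groups that did not overlap, against 10 of 500 miRNAs (2.0%).

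GH females were compared with GH males because both hairpins lie on chromosome X. edgeR called 0 of 4 members and 0 of 500 miRNAs (0.0%), with 12 of the 500 and no member at an unadjusted p under 0.05, and DESeq2 called 5 miRNAs and no member. The log2 fold change of females over males was −0.05 for miR-221-3p (SE 0.25, 95% interval −0.54 to 0.44) and 0.13 for miR-222-3p (SE 0.22, −0.31 to 0.57), both with an adjusted p of 0.996. Differences inside these intervals were not detectable with 5 rats in a group. For the 5p arms the values were −0.26 (miR-221-5p, SE 0.41) and 0.29 (miR-222-5p, SE 1.64), and again no member had groups that did not overlap, against 6 of 500 miRNAs (1.2%).

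In males, where the cluster was selected, the 3p arms were higher in SI rats and the 5p arms were not. The log2 fold change of SI over GH was 1.09 (SE 0.25) for miR-221-3p, a fold of 2.12, and 0.68 (SE 0.22) for miR-222-3p, a fold of 1.61. For the 5p arms it was −0.23 (miR-221-5p, SE 0.41) and −0.18 (miR-222-5p, SE 1.64). By the labels, miR-221-3p was the only member whose male groups did not overlap, which 69 of 500 miRNAs shared (13.8%), 23 of them higher and 46 lower in SI. The housing difference in females minus that in males was −0.77 (SE 0.35) for miR-221-3p, −0.55 (SE 0.32) for miR-222-3p and −0.01 (SE 0.57) for miR-221-5p. SI females were lower than SI males by a log2 fold change of −0.82 (SE 0.25) for miR-221-3p and −0.42 (SE 0.22) for miR-222-3p, also as a description. With the I17 libraries exchanged, the male values were 1.05 for miR-221-3p and 0.65 for miR-222-3p.

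**Figure D2:**
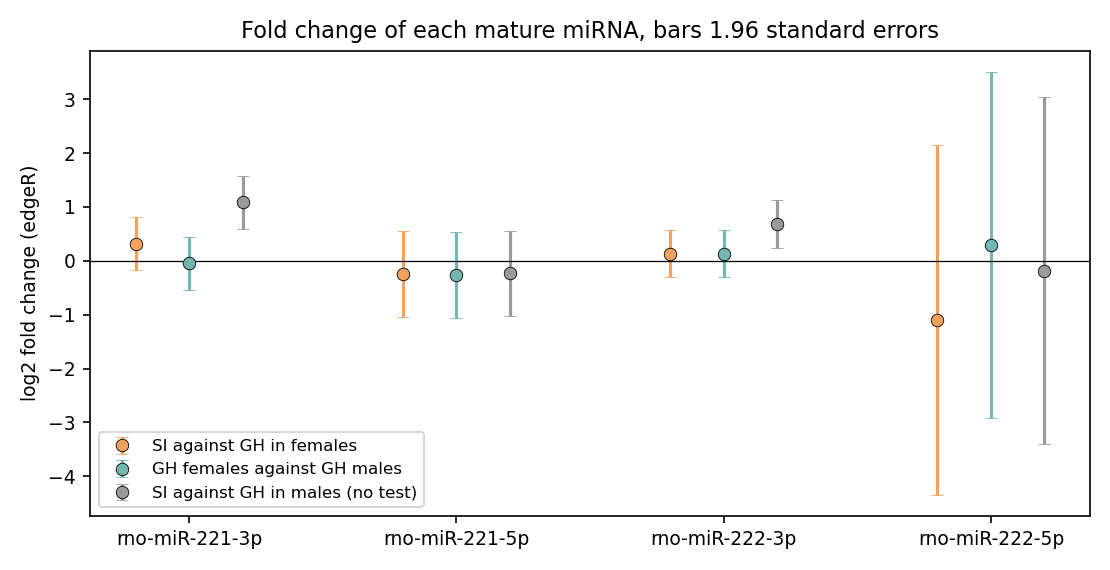
Fitted log2 fold change (edgeR, 5 rats in a group) of each member in SI against GH females, GH females against GH males, and SI against GH males, with bars of the 95% interval. The bars of the female and the sex comparisons cross 0 for all 4 members, and the male values, which chose the cluster and carry no test, are 1.09 for rno-miR-221-3p and 0.68 for rno-miR-222-3p.

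Markers of some cell types, endothelium among them, moved between the housing groups beside these values. The summed CPM of 4 mural cell miRNAs (both arms of miR-143 and miR-145, of smooth muscle and pericytes, most of the sum being miR-143-3p) ranged from 9575 to 16381 in GH males and from 4135 to 6349 in SI males. That of 2 endothelial miRNAs (both arms of miR-126a) ranged from 1003 to 1237 in GH males and from 261 to 647 in SI males. By the labels, both sums were therefore lower in every SI male, while miR-221-3p was higher in every SI male. Of the 4 mural miRNAs, 3 were lower and 1 was higher in SI males (median log2 fold change −0.31). Between GH and SI males the median of miR-143-3p went from 13155 to 5125 CPM, and that of miR-145-5p from 101 to 102 CPM. In females the ranges overlapped, at 12160 to 23980 (GH) and 1763 to 14356 (SI) for mural cells and at 913 to 2697 (GH) and 66.5 to 1135 (SI) for endothelium. The red blood cell list (4 miRNAs, most of the sum being miR-486) ranged from 1054 to 1403 in GH males and from 1359 to 3151 in SI males. The sums of 5 neuronal miRNAs, miR-124-3p, both arms of miR-9a, miR-128-3p and miR-138-5p, were 138076 to 208211 in GH males and 118948 to 175120 in SI males. The lists of immune cells (500 to 882 against 549 to 928) and oligodendrocytes (3857 to 6174 against 5325 to 8597) overlapped between GH and SI males. The choroid plexus and ependymal list was at 1239 to 3296 in GH males and at 1284 to 17563 in SI males. The median of that sum was 1544 in GH and 1364 in SI males. Of its 5 miRNAs, 2 were higher and 3 lower in SI males (median log2 fold change −0.13). Among defining markers, miR-142-3p, of immune cells, had a median of 0 in both male groups. The other miRNAs of the immune list had medians above 0 in both. In GH and SI males these were 536 and 676 CPM for miR-150-5p and 75.1 and 112 CPM for miR-146a-5p. They were 17.26 and 17.02 CPM for miR-142-5p and 2.91 and 1.94 CPM for miR-223-3p. For miR-126a-3p, of endothelium, the medians were 1084 CPM in GH and 536 CPM in SI males. In both tested comparisons edgeR called 0 miRNAs of any list. The part of these cell types in the levels of the cluster was not tested.

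Ratios within a library do not depend on normalization, and they set the 2 arms of a hairpin, or the 2 hairpins, against each other. For miR-221 the 3p arm exceeded the 5p arm in all 20 libraries, by 8.24 to 205 times with a median of 21.4. The log2 ratio was 3.901 ± 0.577 in GH males, 4.14 ± 0.36 in GH females, 4.98 ± 1.61 in SI females and 5.35 ± 0.54 in SI males (SD, n = 5). In males it ran from 3.04 to 4.65 in GH and from 4.84 to 6.22 in SI rats, without overlap, a pattern that rests on the values by which the cluster was chosen. The highest ratio of all, 7.68, was that of the SI female I16F, whose miR-221-5p was low. Between SI and GH females the log2 ratio differed by 0.84 (exact permutation test, two-sided, p = 0.325, adjusted p = 0.905), with 2 of 5 SI females above and 1 below all GH females. The difference was 0.16 without I16F (exact permutation p = 0.627) and 1.21 without I10F (exact permutation p = 0.056, adjusted p = 0.689).

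miR-222 was the more unequal hairpin, its 3p arm exceeding the 5p arm by at least 507 times in every library with 1 read added to each count. That ratio depends on the added read in the 6 libraries where miR-222-5p was listed at 0. In females it was 10.14 ± 0.85 in GH and 12.59 ± 2.51 in SI rats on the log2 scale (exact permutation p = 0.119, adjusted p = 0.905). Between the hairpins, the log2 ratio of miR-221-3p to miR-222-3p was −0.86 ± 0.18 in GH females, −0.70 ± 0.28 in SI females, −0.73 ± 0.26 in GH males and −0.29 ± 0.23 in SI males. Only the SI male I15M had as many reads of miR-221-3p as of miR-222-3p, with 43111 and 43000. The ratio differed by 0.16 between SI and GH females (exact permutation p = 0.310, adjusted p = 0.905) and by −0.13 between GH females and GH males (p = 0.397, adjusted p = 0.905). With 5 rats against 5 the smallest p of this exact test is 0.0079, and p-values are adjusted over 38 shares and ratios.

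**Figure D3:**
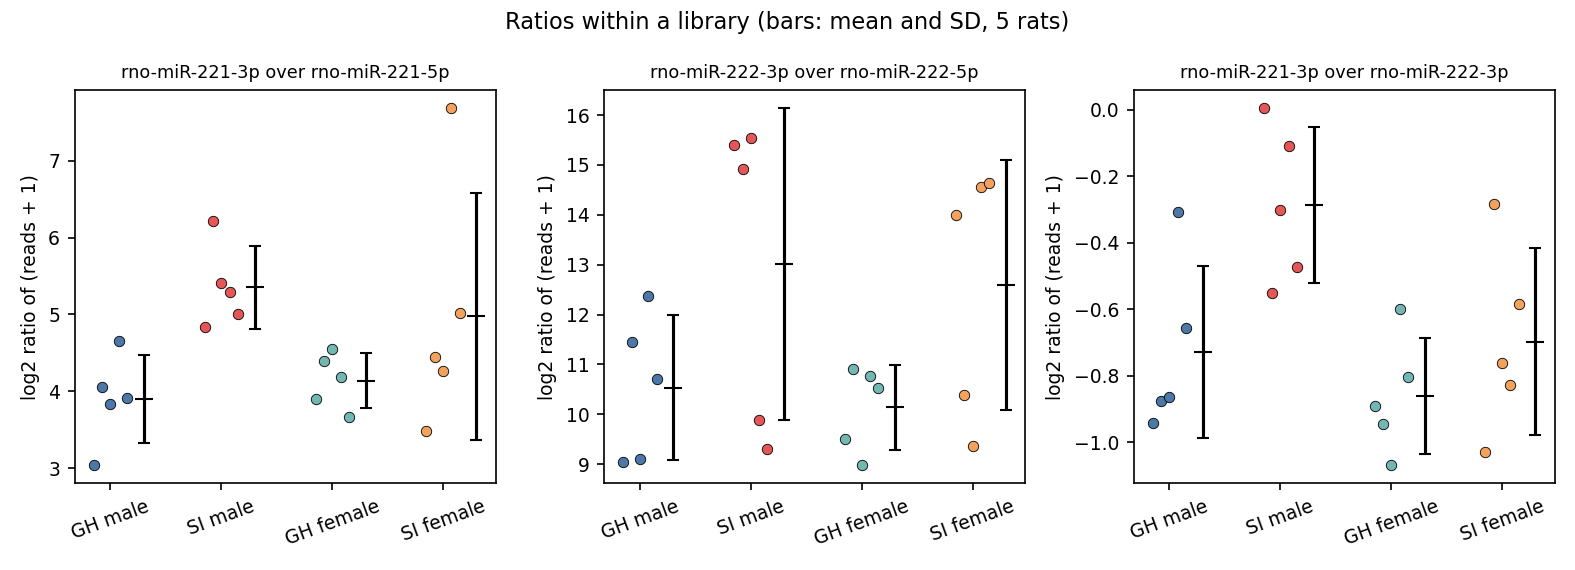
Log2 ratios of reads, with 1 added to each count, in the 5 rats of each group (points) with the mean and SD (bars), for the 2 arms of each hairpin and for the 3p arms of both hairpins. The ratio of rno-miR-221-3p to its 5p arm lies between 3.04 and 4.65 in GH males and between 4.84 and 6.22 in SI males, and the ratios above 14 are libraries with rno-miR-222-5p listed at 0.

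The 3p arms varied together between rats of the same housing. Across the 10 GH rats the log2 levels of miR-221-3p and miR-222-3p had a Pearson r of 0.83 (permutation p = 0.0025, adjusted p = 0.0091) and a Spearman rho of 0.83 (permutation p = 0.0048, adjusted p = 0.029). Without G20M and G17F, the rats farthest from the median of miR-221-3p, r was 0.86. Across the 10 SI rats r was 0.84 (permutation p = 0.0030, adjusted p = 0.0091) and rho was 0.75 (permutation p = 0.018, adjusted p = 0.053). Without I10F and I19M it dropped to 0.55, so that the strength of the relation among SI rats rested in part on those rats. With levels centred on the mean of each sex, r was 0.84 in GH rats (permutation p = 0.0010, adjusted p = 0.0062) and 0.77 in SI rats (p = 0.0088, adjusted p = 0.026). The difference of these values between SI and GH, −0.07, was within what permuting housing within sex gave (permutation p = 0.641).

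**Figure D4:**
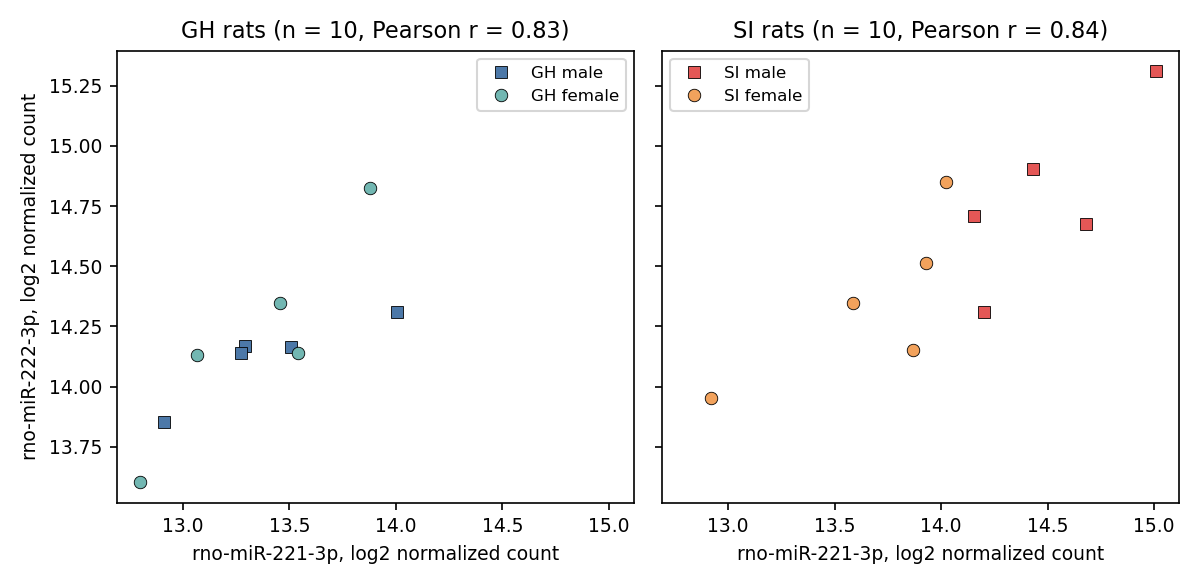
Log2 normalized counts of rno-miR-221-3p (x axis) and rno-miR-222-3p (y axis) in the 10 GH rats (left) and the 10 SI rats (right), squares for males and circles for females. The points rise together in both panels, with r of 0.83 in GH and 0.84 in SI rats.

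The 2 arms of a hairpin did not vary together detectably. For miR-221-3p with miR-221-5p, r was 0.21 in GH rats (permutation p = 0.578) and 0.10 in SI rats (p = 0.756), and the r without the 2 farthest rats was 0.17 and 0.20. For miR-222-3p with miR-222-5p, r was 0.02 in GH rats (permutation p = 0.964) and −0.23 in SI rats (p = 0.531), and −0.35 and −0.36 without them. All 4 adjusted p-values, over the 6 correlations computed, were at least 0.867, and rho ranged from −0.19 to 0.28. With few reads, miR-222-5p carried counting error that a correlation cannot separate from the spread between rats.

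Compared with all other miRNAs tested, each 3p arm was most like the other. Over the 20 rats, with levels centred on the group means, miR-221-3p and miR-222-3p had an r of 0.81, and each ranked 1 among the 499 others of the other arm, where the median r was −0.02 for miR-221-3p and −0.05 for miR-222-3p. After miR-222-3p, the miRNAs most like miR-221-3p were miR-383-5p (r = 0.78), let-7f-5p (0.70), let-7d-5p (0.70) and miR-93-3p (0.67). After miR-221-3p, those most like miR-222-3p were let-7d-5p (r = 0.76), miR-127-3p (0.75), miR-342-3p (0.73) and miR-383-5p (0.71). miR-127-3p and miR-342-3p have their precursors on chromosome 6, let-7d-5p on chromosome 17 and miR-93-3p on chromosome 12, so the likeness was not limited to chromosome X. By the same measure miR-221-5p ranked 265 for miR-221-3p (r = −0.04) and miR-222-5p ranked 335 for miR-222-3p (r = −0.21). These values describe libraries that share their depth and normalization.

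In males, the miRNAs most like the 3p arms had log2 fold changes of SI over GH of 0.999 (miR-383-5p), 0.61 (let-7d-5p), 0.54 (miR-127-3p), 0.51 (let-7f-5p), 0.40 (miR-342-3p) and −0.12 (miR-93-3p). In females, edgeR's adjusted p for them was at least 0.0876, which was that of let-7d-5p at a log2 fold change of 0.70 (SE 0.22).

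No share of a form of the 3p arms differed detectably between the female groups or between the sexes in GH rats, and 0 of 38 shares and ratios passed the threshold after adjustment. For miR-221-3p, reads shorter than the reference at the 3′ end made up 56.4% ± 3.52, the reference form 29.3% ± 3.07, reads with added U 14.7% ± 1.81 and reads with added A 3.51% ± 0.87 (SD, n = 20). For miR-222-3p, reads with 3′ bases of the hairpin beyond the reference made up 87.4% ± 1.81, the reference form 7.24% ± 1.17, reads with added A 10.4% ± 1.55 and reads with added U 5.33% ± 0.81. A read can fall in several of these classes, such as a shortened end with an added base. Added A was thus the more frequent addition for miR-222-3p, and added U for miR-221-3p, in all 20 libraries.

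Of the tested shares, 3 had an unadjusted exact permutation p under 0.1, all of miR-222-3p, and they are named for that reason. Reads with a shifted 5′ end made up 1.995, 2.15, 2.60, 3.38 and 3.48% in SI females and 1.41, 1.53, 1.66, 2.31 and 2.36% in GH females, with 3 SI rats above all GH rats (exact permutation p = 0.056, adjusted p = 0.804). Additions other than A or U alone averaged 5.23% ± 0.60 in SI and 6.23% ± 0.85 in GH females (exact permutation p = 0.063, adjusted p = 0.804). Reads with a mismatch averaged 1.74% ± 0.155 in GH females and 1.46% ± 0.140 in GH males (exact permutation p = 0.016, adjusted p = 0.603). As a description in males, the reference form of miR-221-3p averaged 32.5% ± 1.88 in SI and 28.0% ± 3.16 in GH rats. Added A of miR-222-3p ranged from 7.78 to 11.1% in SI males and from 10.4 to 12.3% in GH males, 4 of 5 SI males lying below all GH males.

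**Figure D5:**
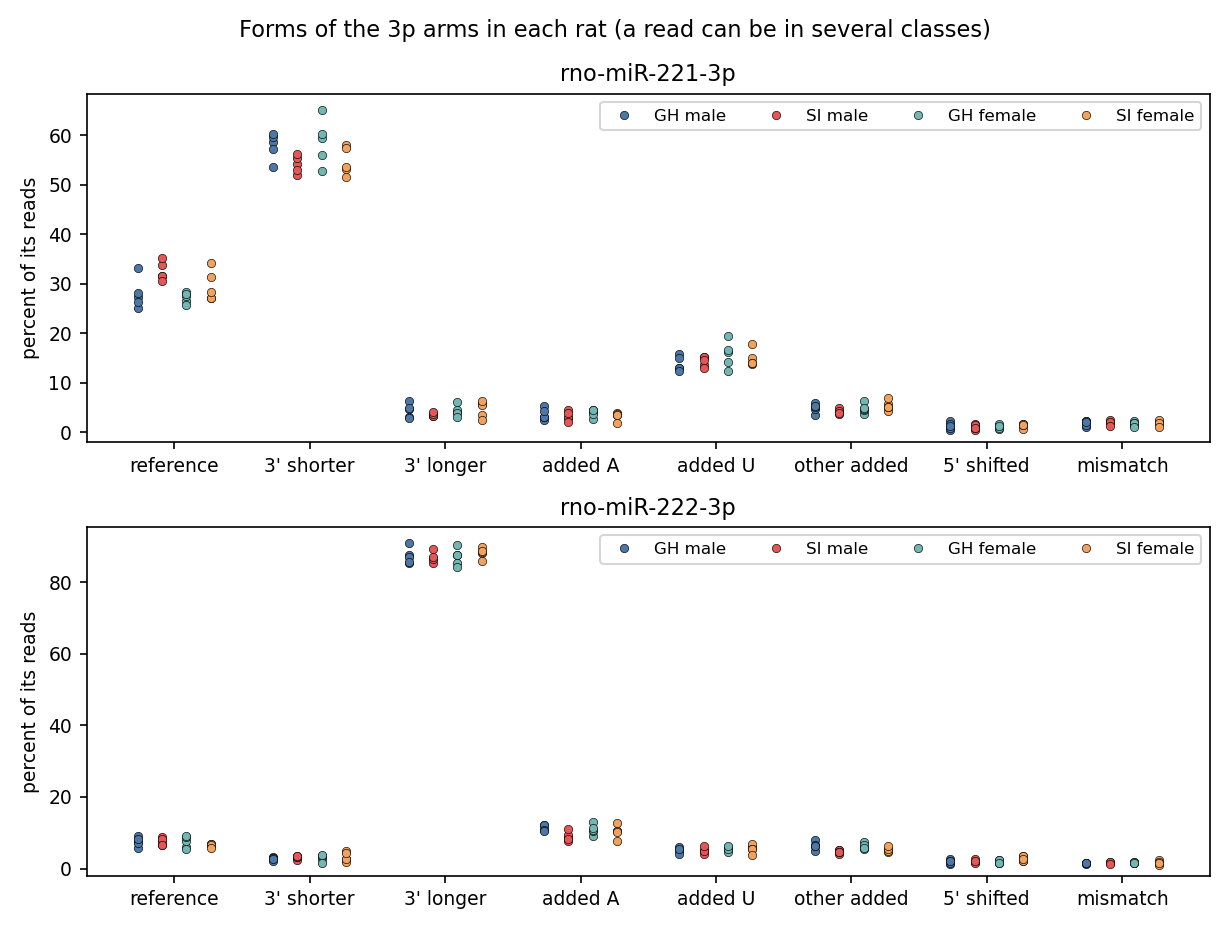
Percent of the reads of rno-miR-221-3p (top) and rno-miR-222-3p (bottom) in each class of form, 1 point for each of the 5 rats in a group, with classes that can overlap. SI and GH rats of each sex overlap in every class, and the arms differ, rno-miR-221-3p averaging 56.4% shorter and rno-miR-222-3p 87.4% longer reads at the 3′ end.

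Single isomiRs, meaning reads of a miRNA with the same ends, additions and mismatch, were tested in the same way as miRNAs. Of 10290 isomiRs tested, 125 belonged to the cluster, 73 to miR-222-3p, 45 to miR-221-3p, 6 to miR-221-5p and 1 to miR-222-5p. In females edgeR called 0 of the 125 after adjustment over all isomiRs, and 0 of the 10290 (0.0%). An unadjusted p under 0.05 was found for 7 of the 125 (5.6%), 2 of them higher in SI, against 950 of the 10290 (9.23%). Between GH females and GH males edgeR called 0 of the 125 and 0 of 10290 (0.0%), with 1 of the 125 and 171 of the 10290 at an unadjusted p under 0.05. DESeq2 was not run on isomiRs. The median log2 fold change of the 125 isomiRs in females was −0.11, and that of all isomiRs was −0.12.

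Other miRNAs on chromosome X had a median difference near that of all miRNAs in males, where the 3p arms were higher in SI rats. A chromosome could be assigned by name to 454 of the 500 miRNAs, of which 53 had their precursors on chromosome X alone, 49 without the cluster. In males, 28 of those 49 had a log2 fold change above 0, with a median of 0.06 and a median of −0.01 over all 500 miRNAs. miR-221-3p ranked 9 and miR-222-3p ranked 13 of the 53 from the highest. In females 16 of the 49 were above 0, with a median of −0.29 and a median of −0.13 over all 500 miRNAs. Between GH females and GH males 30 of the 49 were above 0, with a median of 0.13 against 0.02 over all 500. Of the 49, edgeR called 0 in either comparison. No count above 0 over all miRNAs was made to set beside these counts.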

How the data were processed

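Small RNA libraries were sequenced from the adBNST of 20 rats. The authors trimmed adapters with cutadapt, aligned reads to the rat entries of miRBase v21 with seqbuster. The authors deposited 1 table per library, whose counts are the reads of each sequence found, listed beside the matching miRNA and any change from the reference form. Tool versions are not given in the sources used here. The deposited counts were whole numbers of at least 2 reads and not normalized. Reads carry no molecular identifiers in these files, and binomial intervals are not used.

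Counts were summed per miRNA, a read of several miRNAs counting for each. Of 617 miRNAs, 500 with at least 10 counts in at least 5 libraries were tested with the quasi-likelihood F test of edgeR 4.0.16 (R 4.3.3), in 1 model of the 4 groups with TMM scaling and Benjamini-Hochberg adjustment (threshold 0.05), and 10290 isomiRs likewise. Standard errors were derived from the fold change and its F statistic. Reported log2 levels have 1 added to the normalized count. DESeq2 1.42.0 (Wald test, unfiltered counts) was an alternative. Shares and ratios were compared with two-sided exact permutation tests, correlations with 100000 permutations (Python 3.11.15, numpy 2.4.6, scipy 1.17.1). Both tests were tested on simulated data. Of 190 pairs of libraries none was a copy (lowest chi-square per degree of freedom 78.5).

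The members, the lists and the tests were chosen with earlier results of these data known. The miRNAs named are the 4 members, the 5 most like each 3p arm, those with the same seed, and the marker and chromosome X lists as summaries. Coordinates and sequences are from RefSeq on GRCr8, whereas the authors aligned to rn6 for other steps, so the coordinates are not those of their build.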

Additional observations from a re-analysis of the deposited data

Results flagged for a closer look

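In groups of 5 rats, 92 sets of values (levels, ratios and shares of forms) were searched for a rat whose gap to its nearest neighbour was over 0.71 of the whole range, which chance gives in about 1 of 20 groups. There were 4 such values, all in SI females. Over all groups together, 4 of 92 is near that rate. Their lying in a single group was not tested, and shares of the same miRNA are not independent sets. The log2 level of miR-221-5p was 6.34 in I16F, with 8.91 in the next rat. The share of miR-221-3p reads with added A was 1.88% in the same rat, with 3.39% in the next. The share of miR-221-3p reads with a shifted 5′ end was 0.617% in I14F, with 1.44% in the next rat. The share of miR-221-3p reads with added U was 17.8% in I17F, with 14.9% in the next. I17F is 1 of the 2 rats whose label and file name gave opposite sexes.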

How the results depend on the processing

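Of 372 alternative values for 26 results with a test or a count of calls, 351 kept their direction and their side of the threshold, and 21 changed sign without passing the threshold before or after. Of 78 alternative values in males, which have no test, 5 changed sign, all of miR-222-5p, which ranged from −1.56 to 0.248 leaving out 1 rat. The cause was not tested. With total counts alone, miR-222-3p in females was at a log2 fold change of −0.087 and miR-221-3p between GH females and GH males at 0.0063. Leaving out 1 rat moved miR-221-3p between −0.20 and 0.13, miR-222-3p between −0.055 and 0.26 and miR-222-5p between −0.064 and 0.72 for GH females against GH males. It moved miR-221-5p in females between −0.38 and 0.071, the latter without I16F, and the log2 ratio of the miR-222 arms between GH females and GH males from −0.77 to 0.058. The correlation of the miR-221 arms was −0.032 with DESeq2's size factors and −0.12 with centring on sex in SI rats, −0.040 to 0.32 leaving out 1 SI rat and −0.038 to 0.53 leaving out 1 GH rat. That of the miR-222 arms in GH rats was −0.031 with DESeq2's size factors, −0.081 with total counts alone, −0.00021 without mismatched reads, −0.015 with centring on sex and −0.19 to 0.14 leaving out 1 rat. For the correlation of the 3p arms, leaving out 1 rat gave 0.75 to 0.91 in GH and 0.75 to 0.88 in SI rats, with every adjusted p at most 0.048.

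Rat numbers occurred in both housing groups for 3 pairs of females and 2 pairs of males. Deviations from the group means correlated between −0.30 and 0.09 within pairs, with no reference value to set them against. Whether a number marks a litter or only the animal is not known. With the replicate block, miR-221-3p in females was at 0.69 (adjusted p = 0.298) and at 0.66 in the same rats without it, miR-222-3p at 0.494 and 0.480, miR-221-5p at −1.03 and −0.606, and no member passed the threshold. miR-222-5p fell below the count filter there and could not be fitted. In males the values with the replicate block were 0.997 (miR-221-3p) and 0.618 (miR-222-3p). Over all alternatives in males, miR-221-3p ranged from 0.94 to 1.27 and miR-222-3p from 0.53 to 0.73. The low counts of miR-222-5p limit every value of that arm.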
